A study of Homo sapiens with 5 samples.

Results

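The HOX cluster genes encode the homeodomain transcription factors that give cells their position along the body axis, and their chromatin was examined in SNU638, an established human gastric cancer cell line. The members were 38 HOX genes taken by name, of 19689 genes with a protein-coding transcript in GENCODE release 44. HOXA held 10 of them, HOXB 10, HOXC 9 and HOXD 9. No measured value was used to choose them, although earlier results of these data were known when they were chosen.

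The cells were untreated and were profiled by CUT&Tag, in which an antibody guides the Tn5 transposase to cut and tag the DNA around its target. There was 1 library for anti-BRG1 (Proteintech), 1 for anti-ACTL6A (Abcam), 1 for anti-NRF2 (Cell Signaling) and 2 for control IgG (Millipore), named IgG 1 and IgG 2 here. Peak names inside the IgG 1 list carry the tag BRG1_IgG. Because there was 1 library for each antibody, from 1 cell line, replicate error could not be measured, and all counts and ranks describe these libraries only.

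HOX genes lie in 4 clusters in the order in which they are used along the body axis, with low paralog numbers expressed anteriorly and high numbers posteriorly. Their states are held by opposing chromatin systems: Polycomb complexes keep them silent, and trithorax group proteins keep them active. BRG1, the ATPase of the SWI/SNF remodelling complex, is the human relative of the fly trithorax group protein Brahma, and ACTL6A is an actin-like subunit of the same complex. NRF2 is the transcription factor of the antioxidant response, which binds the antioxidant response element (ARE).

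The DNA at 6 sites is printed first, because the descriptions that follow turn on them. They are the 4 highest BRG1 peaks at HOX starts, at HOXB9, HOXC4, HOXA5 and HOXA13, a site in an intron of HOXA3 with the highest ACTL6A peak of the clusters, and the NRF2 peak of HOXB. Each is the GRCh38 plus strand within 100 bp of the summit, cut at the ends of the peak. Capitals mark a match to any of 4 motifs searched on both strands, namely the ARE core TGACNNNGC, the AP-1 site TGANTCA, a CTCF core and the HOX-PBX site TGATTNAT.

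HOXB9, chr17:48626665-48626865: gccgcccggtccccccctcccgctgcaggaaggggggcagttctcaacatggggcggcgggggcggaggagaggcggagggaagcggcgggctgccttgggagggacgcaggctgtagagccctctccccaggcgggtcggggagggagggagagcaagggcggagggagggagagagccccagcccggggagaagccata

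HOXA13, chr7:27200330-27200530: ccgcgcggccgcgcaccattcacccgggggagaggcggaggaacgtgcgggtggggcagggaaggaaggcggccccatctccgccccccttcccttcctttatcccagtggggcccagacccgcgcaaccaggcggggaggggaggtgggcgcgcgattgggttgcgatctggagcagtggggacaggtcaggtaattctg

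HOXA5, chr7:27143721-27143874: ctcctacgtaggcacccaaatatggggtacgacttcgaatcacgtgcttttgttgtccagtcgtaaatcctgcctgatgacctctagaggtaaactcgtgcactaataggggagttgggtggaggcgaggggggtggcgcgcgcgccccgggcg

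HOXC4, chr12:54018027-54018227: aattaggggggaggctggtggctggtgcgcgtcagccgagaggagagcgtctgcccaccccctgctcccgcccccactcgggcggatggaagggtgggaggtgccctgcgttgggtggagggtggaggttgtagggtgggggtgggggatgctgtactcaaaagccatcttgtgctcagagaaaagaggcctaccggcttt

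HOXA3 intron, chr7:27115228-27115405: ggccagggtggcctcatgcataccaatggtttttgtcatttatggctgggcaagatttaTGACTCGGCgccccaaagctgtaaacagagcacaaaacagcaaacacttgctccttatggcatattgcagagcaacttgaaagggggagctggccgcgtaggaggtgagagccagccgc

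HOXB NRF2 peak, chr17:48646499-48646651: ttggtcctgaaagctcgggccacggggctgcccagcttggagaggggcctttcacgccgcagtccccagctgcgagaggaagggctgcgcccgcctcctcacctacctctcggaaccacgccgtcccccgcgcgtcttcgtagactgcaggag

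Of the printed stretches, 1 held a motif, the ARE core TGACTCGGC in the HOXA3 intron, where no NRF2 peak was listed. The HOXB9 stretch had a GC content of 74.1%, the HOXA13 stretch 70.2% and the HOXA5 stretch 58.4%.

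BRG1 was found at fewer HOX starts than at the starts of genes in general. A BRG1 peak lay within 1 kb of a protein-coding transcription start site (TSS) of 17 of the 38 genes (44.7%), against 63.5% of all genes. ACTL6A peaks were at 3 of 38 (7.89%), against 38.5% of all genes, and an NRF2 peak was at 1 of 38 (2.63%), against 28.1%. Both IgG lists were empty at HOX starts, with 0 of 38 in IgG 1, where 0% of all genes had a peak, and 0 of 38 in IgG 2, where 0.152% did. No HOX gene had peaks of all 3 antibodies at a TSS, while 22.1% of all genes did.

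**Figure D1:**
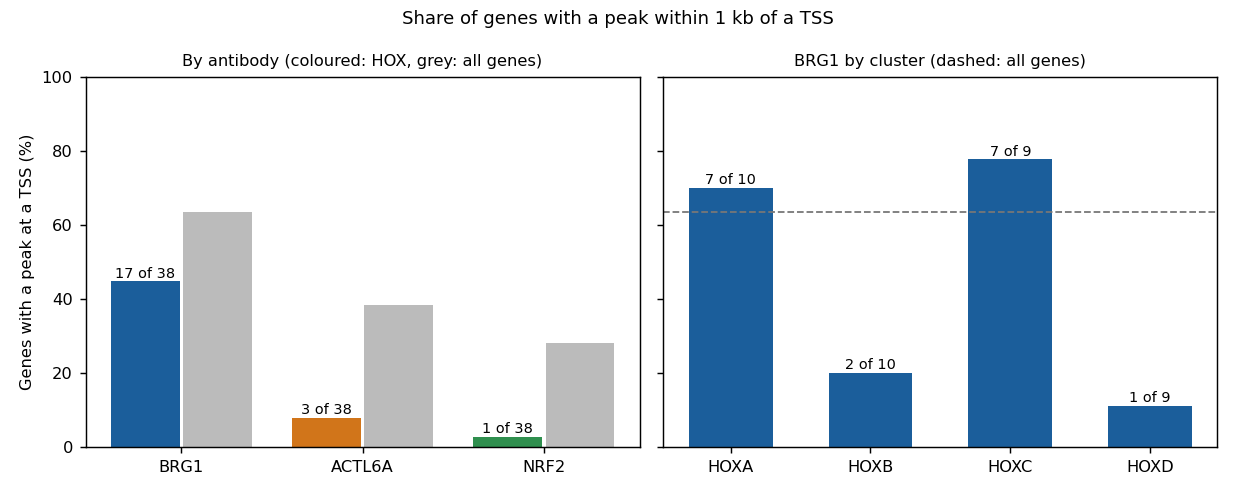
Share of genes (%) with a peak within 1 kb of a TSS, for the 38 HOX genes in colour and all 19689 genes in grey by antibody (left), and for BRG1 by cluster with all genes as a dashed line (right). HOX genes are below all genes for every antibody, and the BRG1 counts are 7 of 10 in HOXA, 2 of 10 in HOXB, 7 of 9 in HOXC and 1 of 9 in HOXD.

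The HOX genes fell into 4 patterns. BRG1 alone was at 13 genes, HOXA3, HOXA5, HOXA6, HOXA7, HOXA10, HOXA11, HOXB3, HOXC5, HOXC6, HOXC9, HOXC10, HOXC11 and HOXD9, a larger share than the 21.1% of all genes. BRG1 with ACTL6A was at 3 genes (14.7% of all genes), HOXA13, HOXB9 and HOXC13, all from paralog groups 9 to 13. BRG1 with NRF2 was at 1 gene, HOXC4 (5.6% of all genes). No peak was at a TSS of the other 21 genes (55.3%, against 34.4% of all genes), which were HOXA2, HOXA4, HOXA9, HOXB1, HOXB2, HOXB4, HOXB5, HOXB6, HOXB7, HOXB8, HOXB13, HOXC8, HOXC12, HOXD1, HOXD3, HOXD4, HOXD8, HOXD10, HOXD11, HOXD12 and HOXD13. ACTL6A or NRF2 was not listed at any HOX start without BRG1.

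Genes of a cluster are not independent, since neighbours can share a peak and some genes have distant alternative starts. HOXC6 and HOXC9 shared their best BRG1 peak at chr12:53995405-53995700, by alternative starts of both. With only the MANE Select start, the 1 transcript per gene agreed between RefSeq and Ensembl, the BRG1 count fell to 12 of 38, against 60.0% of all genes. HOXA3, HOXB3, HOXC4, HOXC6 and HOXC9 were lost, and their MANE Select starts were 1640, 2042, 16714, 4760 and 2576 bp from the nearest BRG1 peak. Near the 1 kb limit, the HOXC4 peak was 795 bp from a start, while the nearest BRG1 peaks of HOXB13 and HOXB5 were outside at 1503 bp and 1619 bp.

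Peaks over the body of a gene gave the same order. BRG1 had a peak over 20 of 38 HOX genes, against 73.5% of all genes. ACTL6A had one over 10 of 38, against 48.8%, and NRF2 over 2 of 38, against 29.9%. The annotated spans cover alternative transcripts and overlap, so a peak can count for several genes. Both NRF2 genes, HOXC4 and HOXC6, held the same peak. With MANE Select transcripts as genes the counts were 13, 5 and 0, for which no share of all genes is given. HOX genes ranged from 1677 bp (HOXD4) to 56043 bp (HOXB3) in length. HOXB3 had the most BRG1 peaks, 11, some of them also within HOXB6, while HOXD3 with 36491 bp had 0.

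The highest BRG1 peak at a HOX start was at HOXB9, a gene of the posterior group. It spanned chr17:48625940-48626923, covered the start, and had 48 fragments at its summit where 3.6 were expected, with a −log10 q of 33.0. It ranked 2762 of the 48793 BRG1 peaks, within the top 5.66%. An ACTL6A peak overlapped it, 237 bp from the start, with 8 fragments and a −log10 q of 3.51.

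HOXC4, a central gene, had the next highest BRG1 peak, at chr12:54017726-54018556, with 33 fragments and a −log10 q of 24.5 (top 9.74%). The peak lay by the alternative start and not by the MANE Select start. The NRF2 peak at chr12:54017712-54018378 covered nearly the same bases, with 17 fragments against 3.31 expected and a −log10 q of 4.47, and its summit was at 54018126 beside the BRG1 summit at 54018127. An ACTL6A peak with 5 fragments overlapped both, the NRF2 peak only at its edge. Its summit was 338 bp from the NRF2 summit and 337 bp from the BRG1 summit. The ACTL6A peak was 1439 bp from the start and so was not counted at it. This was the 1 site in the clusters with peaks of all 3 antibodies.

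HOXA5 followed, with a narrow BRG1 peak of 154 bp that lay 40 bp upstream of its start. It had 28 fragments at the summit and a −log10 q of 18.5 (top 14.8%), and no ACTL6A peak was listed within 17242 bp of the start. HOXA13, the most posterior gene of its cluster, had 3 BRG1 peaks at its start. The highest, at chr7:27200222-27200578, had 32 fragments and a −log10 q of 17.6 (top 15.8%). Its ACTL6A peak was among the lowest of that list, 950 bp from the start with 5 fragments and a −log10 q of 1.51 (top 92.6%).

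HOXC13, a regulator of hair and nail keratins, had the highest ACTL6A peak at a HOX start, with 6 fragments and a −log10 q of 3.85. BRG1 was there with 14 fragments and a −log10 q of 10.6. The lowest of the 17 BRG1 values were those of HOXA3, with 10 fragments and a −log10 q of 2.24, and HOXD9, with 4 fragments and 2.49. The other 10 genes had best peaks of 10 to 21 fragments with a −log10 q of 2.9 (HOXB3) to 10.7 (HOXC5). HOX starts were thus spread over the whole BRG1 list, from the top 5.66% to the top 86.9%.

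Few of these peaks were among the strongest of the list. Among BRG1 peaks with a −log10 q of at least 5, 10 of 38 HOX genes had one at a TSS, against 55.4% of all genes. Among the highest 5000 BRG1 peaks it was 2 of 38, HOXB9 and HOXC4, against 19.0% of all genes. ACTL6A and NRF2 peaks at HOX starts all had a −log10 q under 5, but no share of all genes is given for them at that cut. Within their own lists, the best ACTL6A peaks ranked from the top 38.5% (HOXC13) to the top 92.6% (HOXA13). The NRF2 peak at HOXC4 ranked in the top 57.3%.

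**Figure D2:**
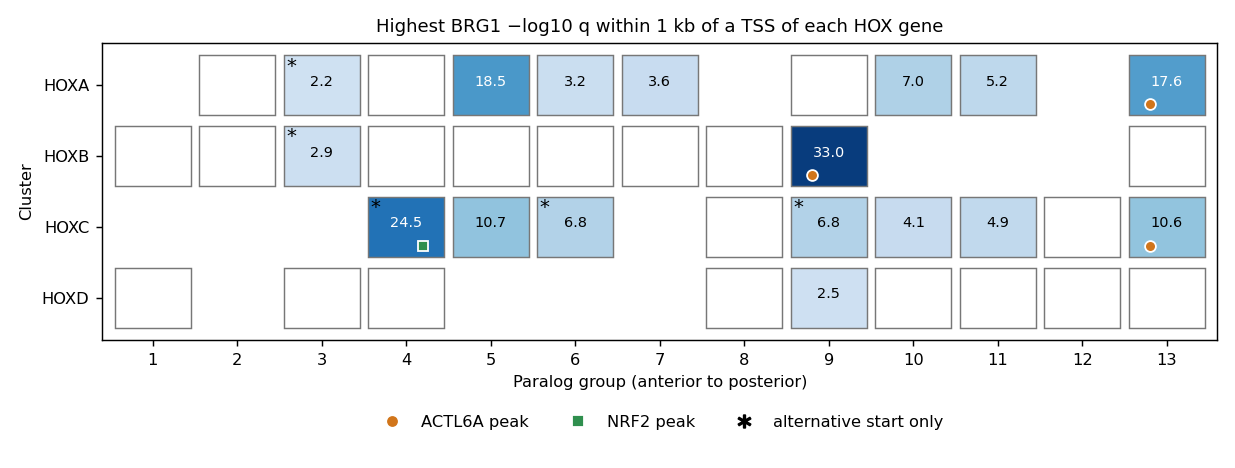
Highest BRG1 −log10 q within 1 kb of a TSS for each of the 38 HOX genes, by cluster (rows) and paralog group (columns). White squares are genes with no BRG1 peak at a TSS, positions without a square hold no member, circles mark ACTL6A peaks, squares mark an NRF2 peak, and stars mark genes reached only at an alternative start. HOXB9 (33.0) and HOXC4 (24.5) are the highest, and HOXD holds a single value, 2.5 at HOXD9.

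By cluster, the counts of HOXB and HOXD were low beside the 63.5% of all genes, and that of HOXA was near it. In HOXA, 7 of 10 genes had BRG1 at a TSS, from HOXA3 to HOXA13, and 6 of 10 at the MANE Select start, where 60.0% of all genes had it. In HOXC it was 7 of 9, and 4 of 9 at the MANE Select start. In HOXB it was 2 of 10, HOXB3 and HOXB9, and in HOXD 1 of 9, HOXD9. All 5 central genes of HOXB, HOXB4 to HOXB8, were without BRG1 at a start, although 8212 bp was the largest distance to the nearest BRG1 peak among them, at HOXB7.

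Along the anterior to posterior order, the count was 2 of 7 for paralog groups 1 to 3, 6 of 15 for groups 4 to 8 and 9 of 16 for groups 9 to 13. Each was a smaller share than the 63.5% of all genes. At the MANE Select start the count was 0 of 7, 4 of 15 and 8 of 16, each below the 60.0% of all genes. The 3 ACTL6A genes were all posterior, and the 1 NRF2 gene was central. Within clusters, HOXA had 1 of 2 anterior, 3 of 4 central and 3 of 4 posterior genes, and HOXB had 1 of 3, 0 of 5 and 1 of 2. HOXC had 3 of 4 central and 4 of 5 posterior genes, and HOXD had 0 of 2, 0 of 2 and 1 of 5. HOXB and HOXD thus had no rise from anterior to central genes, and HOXA had none from central to posterior genes. HOXC has no anterior member. Over the gene body, ACTL6A was at 2 of 7 anterior, 4 of 15 central and 4 of 16 posterior genes, against 48.8% of all genes.

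By paralog group, group 9 had BRG1 at 3 of its 4 genes, HOXB9, HOXC9 and HOXD9, with HOXA9 as the exception. Group 13 had it at HOXA13 and HOXC13 and not at HOXB13 or HOXD13. Groups 1, 2, 8 and 12 had 0 genes with BRG1 at a start.

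Counted as peaks and not as genes, BRG1 was denser than in the genome in HOXA, HOXB and HOXC. The 99738 bp of HOXA held 19 BRG1 peaks, or 19.1 per 100 kb, against 1.58 per 100 kb in the genome. HOXB held 24 over 200225 bp (12 per 100 kb), HOXC 11 over 117200 bp (9.39 per 100 kb), and HOXD 1 over 98187 bp (1.02 per 100 kb). ACTL6A had 8, 7, 2 and 0 peaks in the same order, or 8.02, 3.5, 1.71 and 0 per 100 kb, against 0.774 in the genome. NRF2 had 1 peak in HOXB and 1 in HOXC, and neither IgG list had a peak in any cluster.

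For comparison, the genome was cut into windows of 100 kb. Among 13398 windows with at least 1 coding start, 0.179% held BRG1 peaks at the density of HOXA or above, and 41.7% were at or below the density of HOXD. Among 606 windows with at least 5 coding genes, whose median was 9 BRG1 peaks, the shares were 3.14% and 7.92%. HOXB and HOXC were nearer to the middle of these dense windows, with 26.9% and 43.4% of them at or above. Within 500 kb to each side, BRG1 had 1.8 peaks per 100 kb around HOXA, 3.9 around HOXB, 4.6 around HOXC and 0.9 around HOXD.

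**Figure D3:**
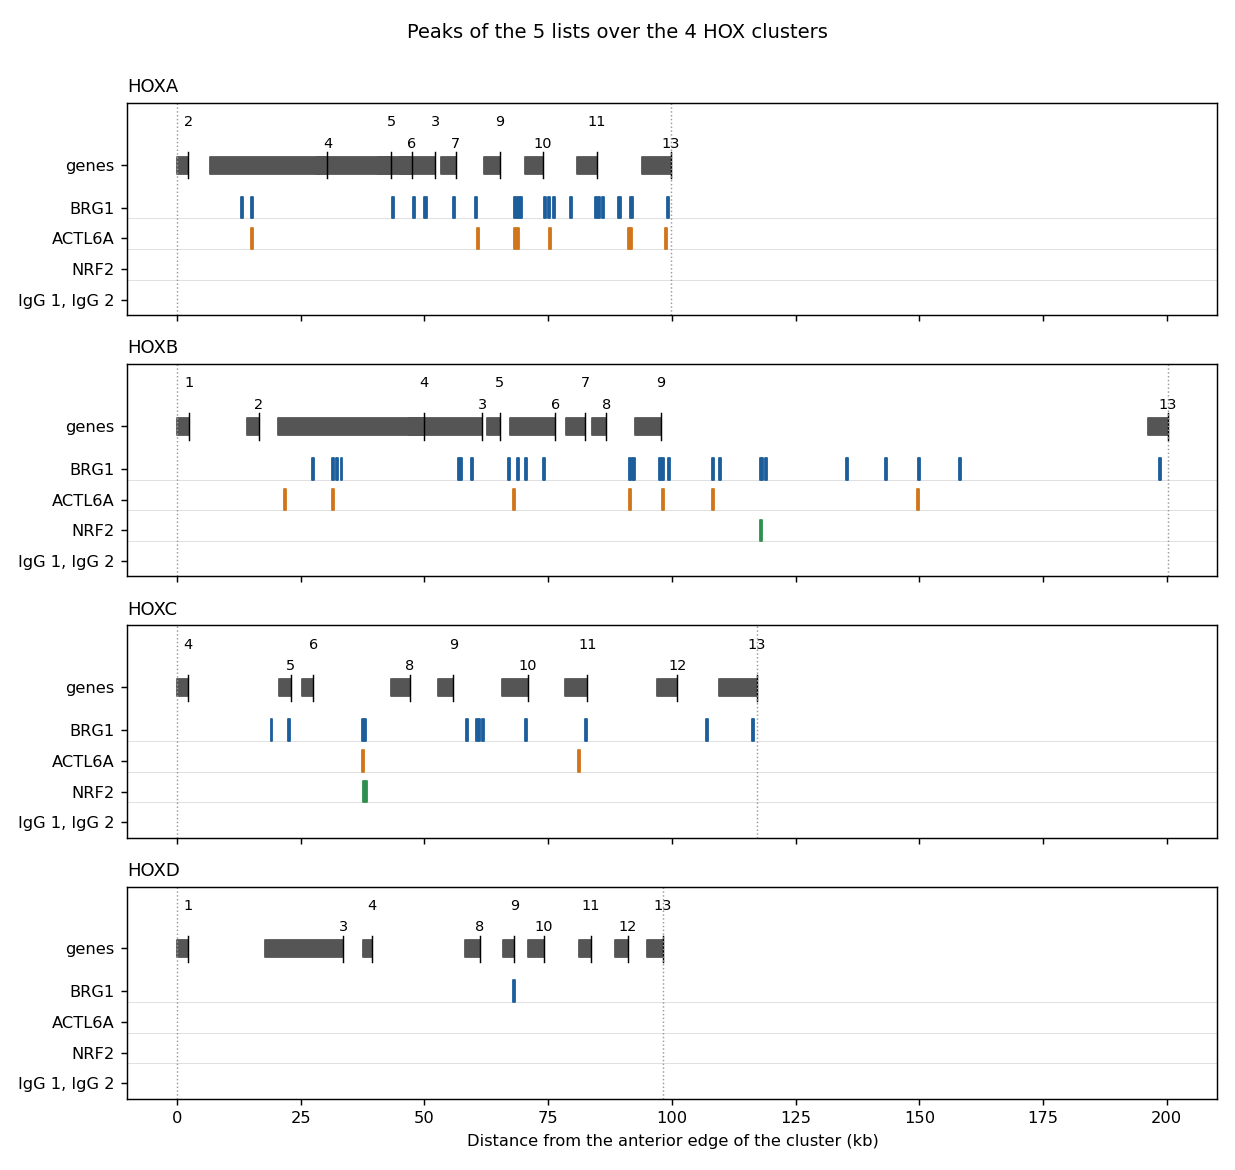
Peaks of the 5 lists over the 4 clusters, in kb from the anterior edge, with MANE Select transcripts in grey, their starts as black lines and paralog numbers above. BRG1 peaks are dense from HOXA5 to HOXA13 and run from HOXB3 past HOXB9, while HOXD has 1 BRG1 peak and no ACTL6A or NRF2 peak, and the IgG row is empty in each cluster.

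The peaks were not evenly placed. The longest stretch of HOXA without BRG1 was 28187 bp, between the HOXA3 intron site and HOXA5, and it held the start of HOXA4 and, at its edge, that of HOXA5. In HOXB the longest was 40284 bp, from LINC02086 into HOXB13, and it held no HOX start. In HOXC the longest was 24265 bp, with the start of HOXC12 and, at its edge, that of HOXC11, which has a BRG1 peak just beyond. In HOXD nothing was listed from HOXD9 through HOXD1, over 67993 bp, and the next BRG1 peaks outside the cluster were 22984 bp beyond HOXD13 and 78535 bp beyond HOXD1. For ACTL6A the next peaks around HOXD were 614094 bp and 350521 bp away.

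The single HOXD peak, at chr2:176122764-176122914, was 45 bp from the start of HOXD9. It had 4 fragments where 0.271 were expected, the lowest expected number in the whole BRG1 list. No second BRG1 library was at hand to show whether it recurs.

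Most peaks in the clusters were away from coding starts. Of 55 BRG1 peaks, 22 lay within 1 kb of a protein-coding TSS and 33 elsewhere, and of 17 ACTL6A peaks 2 and 15 did. The same share over all peaks is not given here. Clusters end with their MANE Select transcripts, so peaks just beyond an end gene were left out. These include the highest BRG1 peaks at HOXA13 and HOXC13 and the ACTL6A peak at HOXC13. With 1 kb added to both ends the clusters held 58 BRG1 and 18 ACTL6A peaks. The highest ACTL6A peak of the clusters, at chr7:27115233-27115530, was in an intron of HOXA3 beside the start of HOXA-AS2, an antisense RNA of the cluster. It had 12 fragments against 0.636 expected and a −log10 q of 8.72, and the BRG1 peak there had 19 fragments and the same summit, 27115305. The sequence of this site, with its ARE core, is among those printed above.

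Antisense and other noncoding genes of the clusters also had peaks near their starts, some of them already counted at coding starts. Of 24 such genes, 14 had BRG1, 8 had ACTL6A and 0 had NRF2 within 1 kb of a start. At coding starts the shares of all genes were 63.5%, 38.5% and 28.1%, and no share over all noncoding genes is given here. HOTTIP, a noncoding RNA from the posterior end of HOXA, had 4 BRG1 peaks, and its highest was the peak counted at HOXA13. HOTAIR, transcribed from HOXC, had 1 BRG1 peak with 10 fragments, the one counted at HOXC11. HAGLR, HAGLROS and HOXD-AS2 of HOXD had none.

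The widest stretch without a HOX gene lies between HOXB9 and HOXB13. It was not empty, although it also held most of the longest HOXB stretch without BRG1. Its strongest BRG1 peaks were by LINC03057 and LINC02086, at chr17:48636589-48636967 with 27 fragments (−log10 q 18.4) and at chr17:48646257-48646994 with 27 fragments (−log10 q 16.1). The second of these overlapped the NRF2 peak of HOXB, at chr17:48646367-48646651, which had 13 fragments and a −log10 q of 2.6.

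The microRNAs of the clusters are processed from hairpins in and between the HOX genes, and several are known to repress HOX messages. Of 6 hairpins, 1 lay under a peak: MIR196B, at chr7:27169480-27169563, was covered by the BRG1 peak at chr7:27169088-27170166, which had 22 fragments and a −log10 q of 9.92. An ACTL6A peak was 274 bp from the hairpin. MIR615 was 427 bp from the BRG1 peak of HOXC5, while MIR196A2, MIR196A1, MIR10A and MIR10B were 2388, 4030, 5361 and 27389 bp from the nearest BRG1 peak. The mature sequences of the miR-196 family are shown because its hairpins differed in this respect while sharing a seed (bases 2 to 8, in capitals), from RefSeq on GRCh38.p14.

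hsa-miR-196b-5p (MIR196B): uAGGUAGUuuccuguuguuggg

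hsa-miR-196a-5p (MIR196A1 and MIR196A2): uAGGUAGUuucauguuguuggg

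The lists shared sites in the clusters to different degrees. BRG1 peaks overlapped an ACTL6A peak in 12 of 55 cases (21.8%), against 24.1% of all BRG1 peaks, and an NRF2 peak in 2 of 55 (3.64%), against 13.3%. Of the 17 ACTL6A peaks, 12 overlapped BRG1 (70.6%), against 49.8% of all ACTL6A peaks, and 1 overlapped NRF2 (5.88%), against 20.1%. Both NRF2 peaks lay on BRG1 peaks, as did 66.2% of all NRF2 peaks.

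Among the motifs, the ARE core was in 8 of the 55 windows of 200 bp around BRG1 summits of the clusters (14.5%), against 11.5% of all BRG1 windows. The AP-1 site was in 3 (5.45%), against 13.2%, and the CTCF core in 2 (3.64%), against 4.38%. The HOX-PBX site was in 0, against 1.9%. A match is a match of letters and says nothing of a bound factor.

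The number of fragments the caller expected at a summit differed between the clusters. The control behind it is not given in the sources used here. At BRG1 peaks its median was 3.2 in HOXA, 2.44 in HOXB, 1.46 in HOXC and 0.271 at the HOXD peak, against 0.854 over all BRG1 peaks. The median over all BRG1 peaks was 0.84 on chromosome 7, 1.43 on 17, 0.843 on 12 and 0.665 on 2. Within 500 kb around the clusters it was 1.13 for HOXA, 0.896 for HOXB, 1.47 for HOXC and 0.378 for HOXD. The median BRG1 peak of the clusters had 14 fragments at its summit, against 10 over the list. The part of the expected number in the number of peaks called was not tested.

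Base composition was read at the same starts. Within 1 kb of the MANE Select start, HOX genes had a median CpG observed to expected ratio of 0.703, beside 0.702 for all 11438 genes with BRG1 at that start and 0.349 for the 7623 genes without. By cluster the median was 0.755 in HOXA, 0.575 in HOXB, 0.636 in HOXC and 0.813 in HOXD. HOXD had the highest ratio and the fewest BRG1 peaks, while the other clusters ran from HOXA to HOXC to HOXB in ratio. In that order, 6 of 10, 4 of 9 and 1 of 10 genes had BRG1 at the MANE Select start. Of the HOX genes, the 12 with BRG1 at the MANE Select start had a median of 0.751 and the 26 without had 0.689, with ranges of 0.547 to 0.865 and 0.254 to 0.955 that overlapped. The part of base composition in the counts was not tested.

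Genes that work with or upstream of HOX were counted in the same way, beside 63.5% of all genes for BRG1, 38.5% for ACTL6A and 28.1% for NRF2. TALE homeodomain cofactors, which bind DNA together with HOX proteins, had BRG1 at 9 of 9 starts, led by PKNOX1 with 90 fragments (−log10 q 83.0). Polycomb genes had it at 13 of 14, with RING1 as the exception, and trithorax-type regulators at 8 of 8, among them KMT2A with 66 fragments. Of the genes of the retinoic acid pathway, through which HOX genes are induced in embryos, RARA, RARG and CYP26A1 had BRG1 and RARB had none. ACTL6A was at 3 of 9 TALE, 5 of 14 Polycomb and 3 of 8 trithorax-type genes, near its share of all genes, and NRF2 was at 2, 4 and 6 of them.

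ParaHox genes and other homeobox neighbours had BRG1 at 2 of 10 starts, PDX1 and MNX1, against 63.5% of all genes. CDX1 and CDX2, intestinal regulators of HOX genes, had no peak of any antibody. Among genes that flank the clusters 6 of 10 had BRG1, about the share of all genes, with TTLL6 beyond HOXB13 at 71 fragments (−log10 q 63.8), and MTX2 and LNPK on either side of HOXD at 11 and 9.

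The labelled cell type was checked by marker starts, which show the antibody's signal and not expression. BRG1 was at 7 of 8 epithelial markers, CLDN4 being the exception, at 3 of 6 mesenchymal and at 1 of 4 blood markers, against 63.5% of all genes. ACTL6A was at 5, 3 and 0 of them, against 38.5% of all genes, and IgG at 0. The mesenchymal counts were thus near those of genes in general.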

How the data were processed

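Peak lists of 5 CUT&Tag libraries of SNU638 cells were used, 1 for each of 3 antibodies and 2 for IgG. The authors trimmed reads with fastp 0.23.0, aligned them with BWA to hg38 and called peaks with MACS2 from uniquely mapped reads at a q-value below 0.05, and the submitters' notes also name FastQC, deepTools and HOMER 4.11. The control given to the caller is not given in the sources used here. Each deposited peak has a score, a fold enrichment (a ratio with a pseudocount of 1), a −log10 p-value and a −log10 q-value of the caller, and a summit offset. None of these was compared between lists.

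From the deposited lists, whole fragments at every summit and those expected there were worked out from the fold and the Poisson p-value (tolerance 0.001 in −log10 p), for at least 99.03% of each list. The lists hold no read totals, so depth was not adjusted for. It can enter every count of genes and peaks here through which peaks passed the caller's threshold. The authors report read totals, which were lowest for ACTL6A, and these were not used. The BRG1 list held 48793 peaks, ACTL6A 23917, NRF2 9045, IgG 1 11 and IgG 2 1746, and a median peak had 10, 6, 17, 17 and 17 fragments.

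Peaks were joined to GENCODE release 44 when they came within 1 kb of a protein-coding start, or shared at least 1 bp with the gene. A cluster ran from the first to the last base of its members' MANE Select transcripts. Members, gene lists and alternatives were chosen with earlier results of these data known. Members were named with values if they had an IgG peak, peaks of all 3 antibodies or 1 of the 3 highest −log10 q of a list at a TSS; other members, sites and genes were chosen after their values were seen. Overlap, distance and fragment routines were tested on simulated data. Shares of members are read beside the share of all genes, and no test was made. The alternatives changed the starts or distances used, the overlap, or the peaks kept (by −log10 q of 5 or more, by rank, or by absence from IgG). The work used samtools 1.23.1, pysam 0.24.0, SciPy 1.17.1, pandas 2.3.3, NumPy 2.4.6 and matplotlib 3.10.9 under Python 3.11.15.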

Additional observations from a re-analysis of the deposited data

How the results depend on the processing

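No paired analysis was possible because there was only 1 library for every antibody. Leaving out peaks shared with IgG could not change a count, since neither IgG list had a peak in a cluster or at a HOX start, so these 45 values say nothing of stability. Of the other 78 alternative values, 31 were within 1.5 times the reported count and 47 were not.

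With a −log10 q of at least 5, genes with a BRG1 peak at a TSS fell to 10 (HOXA 4, HOXB 1, HOXD 0, anterior 0), ACTL6A and NRF2 genes to 0 and 0, genes with an ACTL6A or NRF2 peak over them to 1 and 0, and cluster peaks to 24, 2 and 0 for BRG1, ACTL6A and NRF2. With the highest 5000 peaks of each list, BRG1 was at a TSS of 2 genes (HOXA 0, HOXB 1, HOXC 1, HOXD 0; anterior 0, central 1, posterior 1), ACTL6A and NRF2 at 0 and 0, the 3 antibodies were over 4, 1 and 0 genes, and cluster peaks were 2, 2 and 0. The ACTL6A peaks of the clusters had 4 to 12 fragments at their summits.

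With starts within 250 bp, BRG1 was at 11 genes (HOXA 4, HOXB 1, anterior 0, central 3) and NRF2 at 0. Within 3 kb, ACTL6A was at 11 genes, NRF2 at 2, BRG1 at 5 HOXB genes, and 2 genes had all 3 antibodies. These 2 were HOXC4 and HOXC6, which reached the same NRF2 and ACTL6A peaks. No share of all genes is given at 250 bp or 3 kb. At MANE Select starts alone, NRF2 was at 0 genes and BRG1 at 1 HOXB, 4 HOXC and 0 anterior genes. With MANE Select transcripts as genes, BRG1, ACTL6A and NRF2 were over 13, 5 and 0. When 50% or more of both peaks had to overlap, 3 BRG1 peaks of the clusters overlapped ACTL6A and 1 NRF2. Adding 1 kb to both ends of each cluster, chosen after seeing the data, kept the 3 peak counts within 1.5 times, as did other distances for IgG at 0 genes.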
